A study of Mus musculus with 24 samples.

Results

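Total H2AX was profiled by chromatin immunoprecipitation and sequencing in mouse embryonic fibroblasts (MEFs, primary cells grown from embryos) with XX chromosomes, and cells lacking the deacetylase SIRT7 (genotype SIRT7-KO, here KO) were compared with wild-type cells (WT). The members were the autosomal bins of 100 kb with enough reads to be tested, 24033 of the 24639 autosomal bins in the deposited count table, in 4 H2AX libraries (2 KO, 2 WT). The 4 input libraries of the same cells (2 KO, 2 WT) were fitted in the same way, so that a change of H2AX could be set beside the change of DNA reads without antibody. All groups were C57BL6 cells that had received 5 Gy of X-rays and 30 min of recovery, WT included, and no unirradiated library was among the labelled samples. The XY groups used below carried the same genotypes, strain and treatment, with 2 H2AX and 2 input libraries per genotype. The gH2AX groups of XX cells (2 KO, 2 WT) came from the same treatment with an antibody against the phosphorylated form. Whether both libraries of a group stem from different embryos or cultures is not in the labels, and the p-values below therefore rest on the spread within pairs of libraries, which may be technical. Effects of the genotype cannot be told apart from those of the particular embryos or cultures that stood for it.

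H2AX is a variant of histone H2A that is built into a minor share of nucleosomes all along the chromosomes. Kinases that sense DNA double-strand breaks phosphorylate its tail, and the product, gH2AX, recruits repair factors, whereas the total H2AX signal reads how much of the variant a stretch of chromatin holds. SIRT7 is a NAD-dependent deacetylase that is most abundant in the nucleolus, acts on histone H3 and has roles in ribosomal gene transcription and in repair. Input is the same sheared chromatin sequenced without an antibody. Its read density depends on how much of a stretch the cells hold, how well its reads align and how the chromatin was prepared.

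The regions that carried the changes were few, and the genes at the leading ones are shown here by the 250 bases before their RefSeq transcription starts (build GRCm38.p6), because these genes lay in stretches where H2AX and input moved together. The windows are chr8:47675160-47675409 (minus strand) for Ing2, chr8:47990545-47990794 (minus strand) for Wwc2, chr13:89540386-89540635 (plus strand) for Hapln1, chr11:120573254-120573503 (minus strand) for P4hb and chr12:55154854-55155103 (plus strand) for Srp54b. Sequences run 5′ to 3′ along the gene, and capitals mark matches to the GC box GGGCGG or its reverse complement CCGCCC.
Ing2: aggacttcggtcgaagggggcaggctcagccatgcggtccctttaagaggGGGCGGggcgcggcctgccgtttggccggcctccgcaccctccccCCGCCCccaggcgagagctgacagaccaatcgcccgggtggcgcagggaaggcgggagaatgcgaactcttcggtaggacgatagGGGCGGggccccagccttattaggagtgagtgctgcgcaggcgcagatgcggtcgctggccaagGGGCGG
Wwc2: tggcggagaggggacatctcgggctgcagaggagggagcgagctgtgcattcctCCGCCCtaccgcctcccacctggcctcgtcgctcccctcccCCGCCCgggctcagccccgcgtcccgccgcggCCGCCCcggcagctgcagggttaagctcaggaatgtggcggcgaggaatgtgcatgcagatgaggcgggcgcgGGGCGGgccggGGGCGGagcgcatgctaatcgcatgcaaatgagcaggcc
Hapln1: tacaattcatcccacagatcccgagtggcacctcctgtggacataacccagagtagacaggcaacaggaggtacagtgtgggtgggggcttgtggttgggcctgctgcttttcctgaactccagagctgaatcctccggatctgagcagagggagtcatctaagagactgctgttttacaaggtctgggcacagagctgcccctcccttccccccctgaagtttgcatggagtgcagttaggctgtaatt
P4hb: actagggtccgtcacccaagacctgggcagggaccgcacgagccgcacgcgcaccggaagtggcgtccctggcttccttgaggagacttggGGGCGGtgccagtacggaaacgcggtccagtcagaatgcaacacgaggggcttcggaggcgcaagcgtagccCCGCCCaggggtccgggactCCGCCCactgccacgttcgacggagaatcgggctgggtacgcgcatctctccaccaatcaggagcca
Srp54b: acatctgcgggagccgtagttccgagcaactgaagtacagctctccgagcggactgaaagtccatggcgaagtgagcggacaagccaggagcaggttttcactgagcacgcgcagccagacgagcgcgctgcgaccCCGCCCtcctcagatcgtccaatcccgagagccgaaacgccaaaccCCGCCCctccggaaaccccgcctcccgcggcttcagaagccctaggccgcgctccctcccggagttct
The Ing2, Wwc2, P4hb and Srp54b windows held 4, 5, 3 and 2 matches, and that of Hapln1 held 0. The windows of Dctd, not printed here, held 1, 0 and 1. Of all windows within the chromosome 8 block, 9 of 25 held a match. The counts were 6 of 10 in the P4hb bin, 2 of 3 in the Srp54b bins and 0 of 3 in the Hapln1 bins. The printed windows are examples and do not stand for their regions. Over all 31396 autosomal RefSeq windows of 250 bases, 33.0% held at least 1 match. GC content was 70.0% for Ing2 and 72.0% for Wwc2, against 54.4% for Hapln1 and a median of 52.4% over all windows. A match is a description of letters and not of binding.

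The labels were checked on chromosomes X and Y, which are outside the autosomal bins reported here. The ratio of X-linked to autosomal reads (log2) lay between -4.03 and -3.99 in the 8 H2AX and input libraries of XX cells and between -4.93 and -4.85 in the 8 of XY cells, and the share of reads on Y was 0.0868% to 0.0939% against 1.57% to 1.62%. The bin with Sirt7 (chr11:120600001-120700000) held 50.8 and 51.1 CPM (normalised read count, scaled to a common library size) of H2AX in KO and 50.9 and 51.3 in WT, and 35.0 and 34.6 in input against 34.5 and 35.0. Neither was called (log2 change KO against WT -0.0044 ± 0.03, SE, for H2AX and 0.0059 ± 0.03 for input), and a 100 kb bin cannot show the loss of an exon. Cell identity was not tested, since DNA reads do not show which genes a cell expresses. The H2AX and input libraries of XX cells held between 108.2 M and 269.3 M reads. The variance between replicates was 2.58 to 3.51 times that of counting error (chi-square per degree of freedom).

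Relative to the other bins, H2AX changed in very few bins. Each library was scaled to its own autosomal reads, so a change of H2AX common to all bins would not be seen. In edgeR's quasi-likelihood test, 37 of 24033 bins passed an adjusted p of 0.05 (0.154%), with 8 higher (0.0333%) and 29 lower (0.121%) in KO. These 37 formed 18 regions, of which 14 were single bins, and 16 of the 37 bins belonged to 1 stretch of chromosome 8. The KO and WT libraries did not overlap in any of the 37, which held for 35.8% of all bins tested. Over all bins the changes were small. The 5th to 95th percentile of the log2 change was -0.06 to 0.06, with a median SE of 0.04, and a typical 95% interval reached 0.07 to either side. Of all bins, 1305 (5.43%) had an unadjusted p under 0.05. The largest uncalled value, 0.85 at chr7:39000001-39100000, rested on 4 to 23 reads per library.

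Input moved in the same places. The same test on the input libraries called 43 bins (0.179%), 12 higher (0.0499%) and 31 lower (0.129%), and the input change had the sign of the H2AX change at all 37 called H2AX bins. Across the 43 bins called in input, which are not independent replicates, H2AX had the same sign in 42 and was called in 31, and the H2AX and input changes correlated with r = 0.98. Outside the chromosome 8 block and the bin directly after it the correlation was 0.94 over 26 bins. Over the 23990 bins not called in input it was 0.07. H2AX and input came from separate libraries of the same cells.

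**Figure D1:**
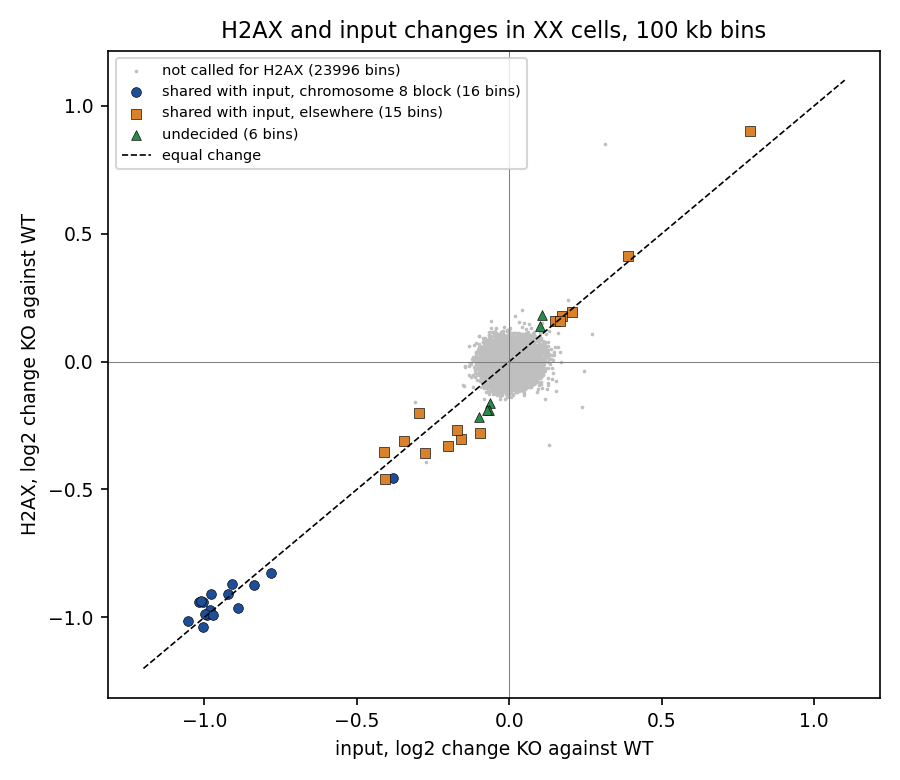
Log2 change of H2AX (y axis) against log2 change of input (x axis), KO against WT in XX cells, 1 point per autosomal 100 kb bin. The called bins, in colour, have the same sign in both, from about -1.04 in the chromosome 8 block to 0.90 at P4hb. The block lies near the dashed line of equal change. Some other called bins lie off it, such as Srgap1 (-0.30, input -0.16) and chr17:39800001-39900000 (-0.28, input -0.10). The grey bins form a round cloud about 0.

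Whether H2AX changed beyond input was asked directly, by testing the H2AX change minus the input change in a fit of all 24 libraries. With edgeR, 0 of 24033 bins passed (0%), 1218 bins (5.07%) had an unadjusted p under 0.05, and DESeq2 also called 0. The 95% interval of the difference reached about 0.10 to either side of a typical bin, so a change of H2AX of that size without one in input was within the error of most bins. By the rule used here, a bin was shared with input when input was called in the same direction and the difference was not, and undecided when neither was called. This gave 31 shared bins (6 higher, 25 lower) and 6 undecided bins (2 higher, 4 lower), and 0 bins were called for H2AX in which input was called against it or in which the difference was called. The shared bins had a median absolute log2 change of 0.83 for H2AX and 0.78 for input, and a median absolute difference of 0.04. Of these 31 bins, 16 were adjacent bins of the chromosome 8 block, so the medians mostly describe that block. Over the 26 bins called in input outside the block and the bin directly after it, the medians were 0.17 for H2AX and 0.16 for input. The median absolute difference there was 0.09. A difference that misses the threshold does not show that the changes were equal, and the 95% intervals given with the bins below are not adjusted for the number of bins.

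The largest change was a fall over 1.6 Mb of chromosome 8. At chr8:47500001-49100000, a run of 16 bins, mean H2AX per bin was 21.5 and 21.2 CPM in the KO libraries and 40.2 and 39.8 in the WT libraries, 0.533 times the WT level. Mean input per bin was 20.1 and 20.1 CPM in KO and 37.8 and 38.0 in WT, 0.53 times. Both KO libraries thus lay at about the same reduced level in H2AX and in input, far below both WT libraries. In bulk chromatin a loss in some of the cells and a lower level in each cell cannot be told apart. The stretch holds Ing2, a reader of methylated histone H3 in a histone deacetylase complex, Cdkn2aip, a binding partner of the tumour suppressor ARF, Wwc2, a scaffold of Hippo signalling, Dctd, which deaminates dCMP on the way to thymidylate, and part of Tenm3, a teneurin adhesion protein.

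Within the block H2AX fell by 0.83 to 1.04 on the log2 scale in every bin but the first, which fell by 0.46. In the leading bin, chr8:48000001-48100000 (Dctd), H2AX was 18.1 and 16.4 CPM in KO and 36.2 and 35.0 in WT, a fall of 1.04 ± 0.04 on the log2 scale (adjusted p = 2.62e-36, edgeR), and input was 18.8 and 18.7 against 37.9 and 37.4. In the WT libraries H2AX was highest at chr8:47800001-47900000, which holds part of Wwc2 and the claudin genes Cldn22 and Cldn24. This bin had 26.8 and 27.2 CPM in KO and 52.8 and 51.0 in WT, while input there was 18.2 and 18.9 against 38.0 and 37.1. The lowest was chr8:48800001-48900000 in Tenm3, with 16.5 and 16.2 CPM in KO and 31.8 and 30.9 in WT. Across the block the WT libraries thus ranged from 30.9 to 52.8 CPM for H2AX and from 34.5 to 39.9 for input. The H2AX minus input difference lay between -0.07 and 0.08 in all 16 bins, and its 95% interval at the Dctd bin was -0.15 to 0.08.

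The edges of the block lay within 1 bin of each other in H2AX and input. The first bin, chr8:47500001-47600000 (Trappc11, a vesicle tethering factor), fell by 0.46 in H2AX and by 0.38 in input, with 30.2 and 29.9 CPM of H2AX in KO against 41.3 and 41.1 in WT. Its left neighbour, which holds part of Stox2, was called in neither (-0.02, with input at 0.02). On the right, chr8:49100001-49200000 in Tenm3 had a log2 change of -0.16 for H2AX (adjusted p = 0.054) and fell by 0.31 in input, and the bin after it had 0.12 and -0.0067, neither called. All 16 block bins kept their call without each of the 4 H2AX libraries in turn and with DESeq2. In gH2AX of the same cells the block changed by -0.46 to -1.07, called in all 16 bins. In XY cells H2AX changed by -0.13 to 0.04 there, called in 0 bins, and the difference between the sexes passed in all 16.

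**Figure D2:**
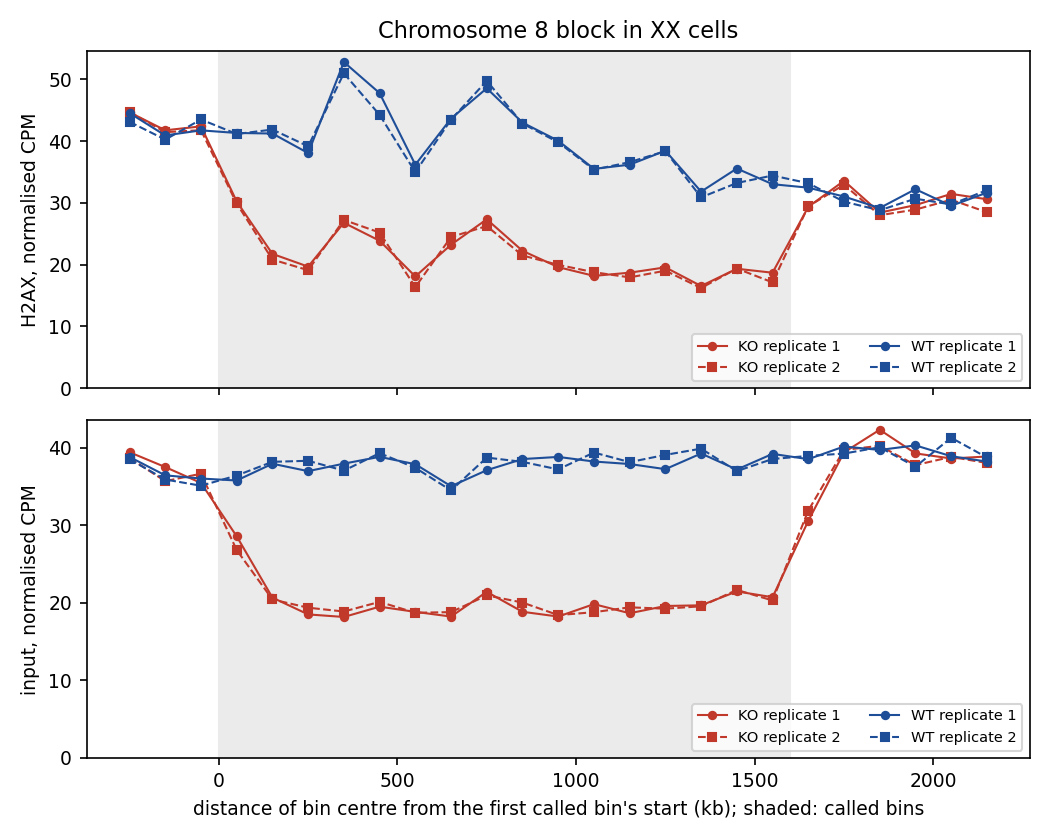
Normalised CPM of H2AX (top) and input (bottom) in the 4 XX libraries of each kind, by the distance of the bin centre from the start of the first called bin in kb, with the 16 called bins shaded. KO libraries lie at 0.533 times the WT level for H2AX and 0.53 times for input inside the shading. In the first bin to the right of it KO still lies below WT, with log2 changes of -0.16 for H2AX and -0.31 for input.

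The largest gain was 1 bin on chromosome 11 next to the targeted gene. At chr11:120500001-120600000, H2AX was 88.6 and 88.0 CPM in KO and 46.9 and 47.6 in WT, a rise of 0.90 ± 0.03 (1.87-fold, adjusted p = 1.91e-41, edgeR). Input was 65.0 and 63.3 CPM against 37.0 and 37.2, a rise of 0.79 ± 0.03 (1.73-fold). KO and WT stood far apart in both. The bin holds P4hb, a protein disulphide isomerase that is also a subunit of the collagen prolyl hydroxylase, Gcgr, the glucagon receptor, Mcrip1 and Alyref, an mRNA export adaptor. It lies directly before the bin of Sirt7, and the bins on either side of it were not called (0.00013 and -0.0044). The H2AX change exceeded that of input by 0.12 (95% interval 0.03 to 0.20, adjusted p = 0.986). The rise was also called in gH2AX (0.70) and in H2AX of XY cells (0.83), and the XX and XY changes did not differ by the test (0.08, adjusted p = 0.747). The difference between gH2AX and H2AX passed (-0.21, adjusted p = 0.00586).

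On chromosome 12, H2AX rose over 2 bins, chr12:55100001-55300000, which hold Srp54b and Srp54c, near-identical copies of the GTPase subunit of the signal recognition particle, and Ppp2r3c, a regulatory subunit of protein phosphatase 2A. In the leading bin H2AX was 45.2 and 44.8 CPM in KO and 34.1 and 33.6 in WT (0.41 ± 0.04, adjusted p = 4.20e-16, edgeR), and input was 41.0 and 40.4 against 31.6 and 30.4 (0.39 ± 0.03). The second bin rose by 0.19 in H2AX and 0.21 in input. The 95% interval of H2AX minus input was -0.07 to 0.13 in the first bin and -0.11 to 0.09 in the second. In XY cells the direction was the opposite, with H2AX at 25.6 and 26.6 CPM in KO and 46.0 and 46.4 in WT (-0.83), and input moved likewise (-0.76). Of the 4 groups, XY KO was lowest and XY WT highest, with the XX groups between them. How reads that match several of the copies were counted is not stated, so the values cannot be given to 1 copy.

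Over chr13:89400001-89700000, a stretch of 3 bins with Hapln1, a link protein that joins hyaluronan to proteoglycans, and Vcan, the matrix proteoglycan versican, H2AX fell. In the leading bin, which holds most of Hapln1, it was 43.2 and 43.9 CPM in KO and 60.6 and 59.2 in WT, a fall of 0.46 ± 0.03 (adjusted p = 5.70e-22, edgeR), with input at 57.3 and 56.4 against 75.2 and 75.8 (-0.41 ± 0.03). The Vcan bin fell by 0.36 (input -0.41) and the gene-free bin before them by 0.20 (input -0.30). All KO libraries lay below all WT libraries in the 3 bins. The 95% interval of H2AX minus input was -0.13 to 0.04 for Hapln1, -0.03 to 0.15 for Vcan and 0.0046 to 0.19 for the gene-free bin, where input fell further than H2AX by the point values. In XY cells the stretch changed by -0.01 to 0.03, with 0 bins called, and the difference between the sexes passed in all 3. The stretch carried more input than usual, 1.42 to 1.89 times the median autosomal bin. The single bin chr8:74000001-74100000, which holds no protein-coding gene, fell from 27.0 and 25.5 CPM in WT to 21.0 and 21.4 in KO (-0.31 ± 0.04), with input at -0.34, H2AX minus input at 0.04 (95% interval -0.08 to 0.16) and XY at -0.03.

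The bin chr17:39800001-39900000, in which RefSeq places Rn18s-rs5, a pseudogene of 18S ribosomal RNA, had the smallest p for a change beyond input. H2AX was 219 and 218 CPM in KO and 264 and 266 in WT, a fall of 0.28 ± 0.03 (adjusted p = 5.15e-10, edgeR), while input was 267 and 275 against 292 and 288 (-0.10 ± 0.02, adjusted p = 0.000735). The difference was -0.18 (95% interval -0.26 to -0.10), with an adjusted p of 0.117 in the fit as designed. It passed with the replicate number as a block (8.05e-07) and with the trend of each library on the H2AX to input ratio removed (0.0330), and it was the only bin that passed for the difference in any alternative run. Its input was 7.26 times that of the median bin. H2AX also fell in XY cells (-0.18), and gH2AX of XX cells, at 2280 and 2101 CPM in KO against 3699 and 3330 in WT, fell by 0.68. The bin was outside the rule for naming regions and was chosen after its values were seen. How reads of repeated sequence were assigned is not stated in the sources used here.

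The smaller rises were shared with input or undecided, and their calls rested on fewer libraries. At chr3:94700001-94800000 (Cgn, the tight junction protein cingulin, and Selenbp2) H2AX was 39.8 and 42.3 CPM in KO and 36.3 and 37.0 in WT (0.16 ± 0.04), with input at 0.17. This call was lost without KO replicate 2 (0.12), WT replicate 1 (0.15) or WT replicate 2 (0.17) and with DESeq2 (adjusted p = 0.0831). At chr14:43300001-43500000 (Gm21154, Gm8138) the leading bin rose by 0.18 ± 0.03, with input at 0.17, and lost its call without KO replicate 1 (0.16) or WT replicate 1 (0.17). The next bin, chr14:43500001-43600000, was undecided at 0.14 ± 0.03 with input at 0.10 (adjusted p = 0.147), and chr1:44200001-44300000 (Mettl21e, a methyltransferase gene) was undecided at 0.18 ± 0.04 with input at 0.11 (adjusted p = 0.386). Both of these lost their call without any 1 of the 4 H2AX libraries, at 0.12 to 0.15 and 0.17 to 0.20. The 95% interval of H2AX minus input was -0.10 to 0.10 at Cgn, -0.09 to 0.11 and -0.04 to 0.13 at the leading and the undecided chromosome 14 bin, and -0.03 to 0.19 at Mettl21e. The chromosome 14 bins belong to a family of repeated gene models, and how their reads were assigned is not stated.

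**Figure D3:**
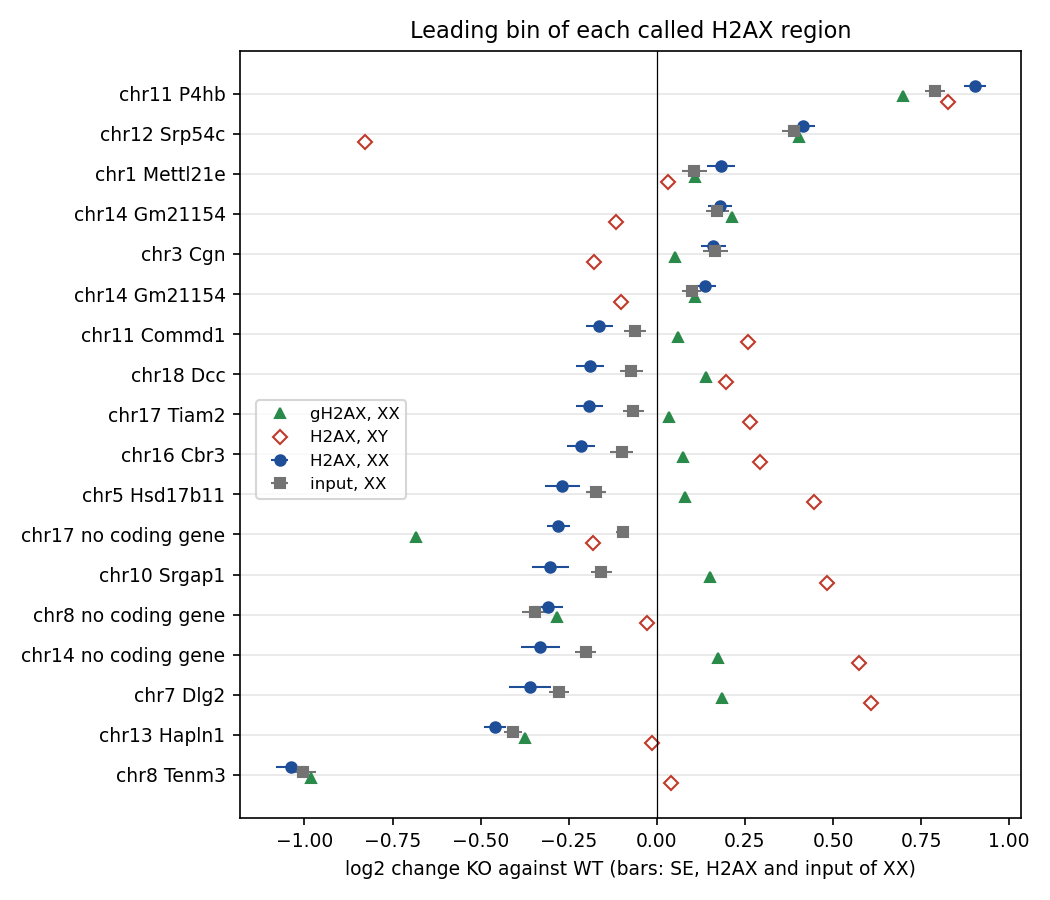
Log2 change KO against WT at the leading bin of each of the 18 regions called for H2AX in XX cells, labelled by chromosome and the gene with most overlap in the region, for H2AX and input (bars, SE) and gH2AX of XX cells and for H2AX of XY cells. Input lies on the side of H2AX in every region, from -1.04 and -1.004 at the chromosome 8 block to 0.90 and 0.79 at P4hb, and the open diamonds of XY lie above 0 in the 8 bins, among them those of Commd1, Hsd17b11 and Dlg2, that are described next.

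In 8 single bins H2AX fell in XX cells and rose in XY cells, both called, and these included the places richest in H2AX. The 4 bins with the highest H2AX to input ratio of all autosomal bins (log2 1.1 to 1.58) were all among them. At chr7:90400001-90500000, which holds 1 end of Dlg2, a scaffold protein of synapses, with Sytl2, a vesicle docking protein, and Tmem126b, H2AX was 217 and 243 CPM in KO and 261 and 329 in WT in XX cells, and 233 and 323 in KO against 168 and 195 in WT in XY cells. The libraries of the groups did not overlap in either sex, but replicates stood further apart than at the other regions, with WT replicate 2 highest in XX and KO replicate 2 highest in XY. The log2 change was -0.36 ± 0.06 in XX (adjusted p = 4.10e-05, edgeR) and 0.61 in XY. Input moved the same way, at 69.6 and 75.7 CPM in KO against 87.5 and 88.5 in WT of XX cells (-0.28 ± 0.03). The H2AX change minus the input change was -0.08 (95% interval -0.20 to 0.05).

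The other 3 of the highest bins followed the same pattern. At chr14:45800001-45900000, without a protein-coding gene, H2AX was 160 and 175 CPM in KO and 189 and 232 in WT (-0.33 ± 0.06, input -0.20, XY 0.57). At chr10:121700001-121800000 (Srgap1, a GTPase activator of the Slit and Robo pathway) it was 124 and 136 against 144 and 176 (-0.30 ± 0.05, input -0.16, XY 0.48). At chr5:104000001-104100000 (Hsd17b11, Sparcl1 and Nudt9, a bin outside the naming rule, chosen after its values were seen) it was 107 and 117 against 122 and 147 (-0.27 ± 0.05, input -0.17, XY 0.45). The 16 bins that came next in H2AX to input ratio (0.80 to 0.98) had log2 changes of -0.14 to 0.09, with 0 called. The H2AX minus input difference was -0.13 (95% interval -0.24 to -0.0070) at chr14:45800001, -0.14 (-0.26 to -0.03) at Srgap1 and -0.09 (-0.20 to 0.02) at Sparcl1. The first 2 of these intervals lie below 0 without adjustment for the number of bins, and the adjusted p was 0.986 at each of the 3 bins (edgeR).

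The remaining 4 of these 8 bins were undecided, since input fell short of the threshold. H2AX was 66.5 and 69.8 CPM in KO against 74.0 and 83.9 in WT at chr16:93600001-93700000 (the carbonyl reductases Cbr1 and Cbr3 and the methyltransferase Setd4, -0.22 ± 0.04, input -0.10). It was 68.3 and 71.4 against 75.2 and 83.9 at chr17:3300001-3400000 (Tiam2, an activator of the GTPase RAC, -0.19 ± 0.04, input -0.07). It was 37.3 and 37.7 against 40.6 and 44.8 at chr18:71400001-71500000 (Dcc, a netrin receptor, -0.19 ± 0.04, input -0.07). It was 66.95 and 71.2 against 73.0 and 81.3 at chr11:22900001-23000000 (Commd1, the chaperonin subunit gene Cct4 and the imprinted Zrsr1, -0.16 ± 0.04, input -0.06). In each both KO libraries lay below both WT libraries, and WT replicate 2 was the highest. Their differences from input were -0.11 (95% interval -0.21 to -0.01) at Cbr3, -0.12 (-0.22 to -0.02) at Tiam2, -0.11 (-0.22 to -0.01) at Dcc and -0.10 (-0.19 to -0.0014) at Commd1. All 4 of these unadjusted intervals lie below 0, with an adjusted p of 0.986 (edgeR).

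The calls at these 8 bins were lost without single libraries and held with the replicate number as a block, which kept all 37 calls. Without WT replicate 2 all 8 lost their call, with -0.18 at the Dlg2 bin, -0.18 at chr14:45800001, -0.15 at Srgap1, -0.12 at Sparcl1, -0.12 at Cbr3, -0.11 at Tiam2, -0.11 at Dcc and -0.08 at Commd1. Without KO replicate 1 all 8 also lost it (-0.28, -0.27, -0.24, -0.21, -0.18, -0.16, -0.18 and -0.12, in the same order), and the Dcc bin lost it without KO replicate 2 as well (-0.20). With DESeq2 all 8 had an adjusted p of 1.00 at nearly the same log2 change (-0.36 at Dlg2). Summed over the 8 bins, H2AX was 848 and 920 CPM in KO and 979 and 1178 in WT of XX cells, and 893 and 1171 in KO and 702 and 781 in WT of XY cells. Replicate 2 thus had the higher sum in each of the 4 H2AX groups, and the part of this in the calls was not tested. Input summed to 396 and 407 CPM against 443 and 452 in XX and to 429 and 464 against 390 and 415 in XY.

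**Figure D4:**
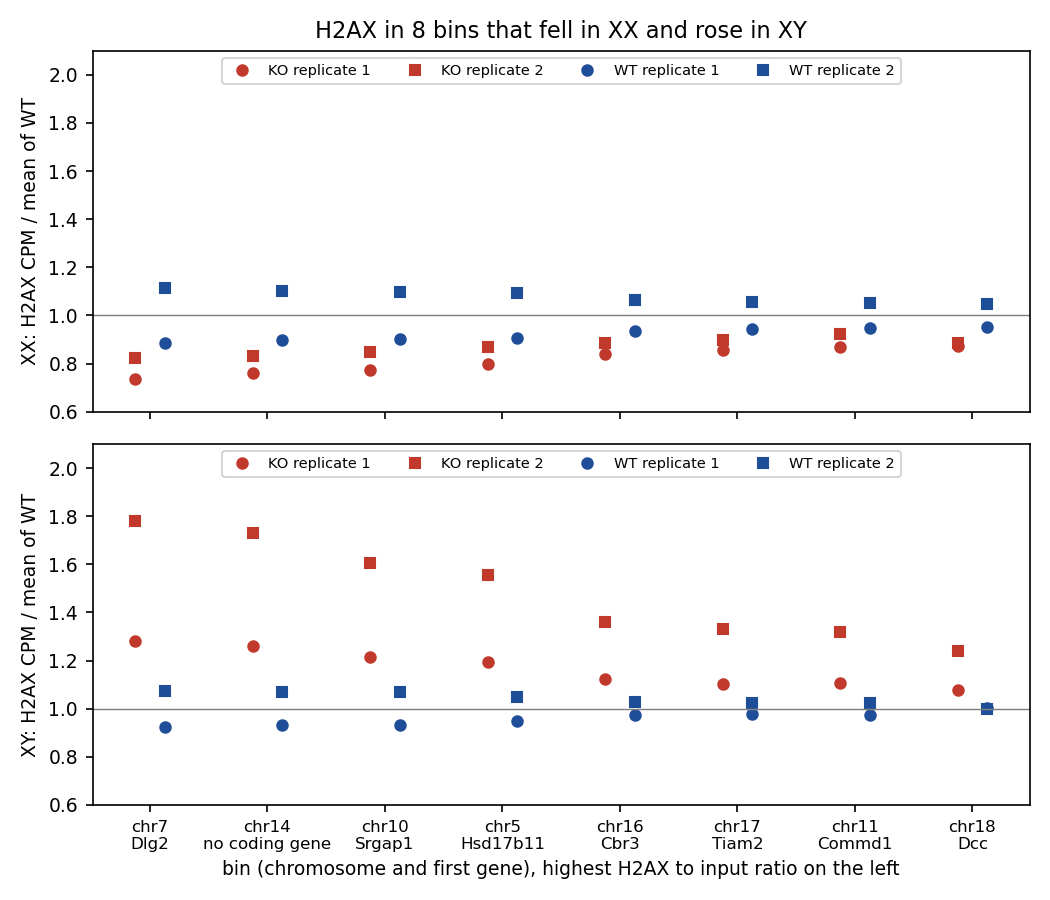
H2AX in each library at the 8 bins, as CPM divided by the mean of the WT libraries of the same sex, in XX (top) and XY (bottom), with bins ordered by H2AX to input ratio. In XX the KO libraries lie below both WT libraries, with WT replicate 2 the highest, and in XY the KO libraries lie above both, with KO replicate 2 the highest.

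Of the 37 calls, 24 held without each H2AX library in turn and with DESeq2. They were the 16 bins of the chromosome 8 block, chr8:74000001-74100000, the P4hb bin, both Srp54 bins, the 3 bins of Hapln1 and Vcan and the Rn18s-rs5 bin. All 24 were shared with input. Of the 6 undecided bins, 0 held in all of these fits.

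The 2 bins next in order of p for the difference between H2AX and input were called for neither alone. At chr4:89400001-89500000, without a protein-coding gene, H2AX was 29.5 and 30.6 CPM in KO and 26.4 and 27.3 in WT, and input was 38.4 and 36.8 against 39.7 and 38.7. The difference was 0.22 (95% interval 0.12 to 0.33, adjusted p = 0.277, edgeR). At chr13:59100001-59200000 (Ntrk2, the receptor of brain-derived neurotrophic factor) H2AX was 41.5 and 43.8 against 44.3 and 47.2, input was 36.2 and 36.4 against 34.4 and 32.8, and the difference was -0.21 (-0.31 to -0.11, adjusted p = 0.277). In both, H2AX and input lay on opposite sides of 0 without passing alone. These bins were chosen after their values were seen.

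Input also changed without a call for H2AX in 12 bins. At chr1:24600001-24700000 (Lmbrd1, a lysosomal cobalamin transport protein) input fell by 0.14 in KO while H2AX had -0.02. At chr17:57200001-57300000, which holds the complement gene C3 and Vav1, an exchange factor of blood cells, input rose by 0.14 and H2AX had -0.04, a difference of -0.19 (adjusted p = 0.509). At chr15:75000001-75100000 (Ly6c1) input fell by 0.15 and H2AX had -0.10. These 3 were chosen after their values were seen.

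Genes of the break response had a median log2 change of 0.0026 over 51 bins, beside -0.000045 over all bins tested. With 0.154% of all bins called, a list of this size holds few calls or none whatever its genes, so the 0 called here and in the other lists is no result about them. The members furthest from 0 were Brca2 (0.08 ± 0.03) and Nbn (0.08 ± 0.04), both of homologous recombination, and Rbbp8 (0.06 ± 0.04), which trims broken ends. Of 33 bins of p53 targets 0 were called (median 0.01), with the pro-apoptotic Pmaip1 at -0.08, the p53 ligase gene Mdm2 at -0.06 and Ccng1 at 0.06. The 15 bins of immediate early genes had a median of -0.0037 and 0 calls, with Myc at -0.05. The 7 sirtuin bins ranged from -0.05 (Sirt1) to 0.05 (Sirt3), with 0 called. H2ax itself, at chr9:44300001-44400000, had 47.5 and 47.1 CPM of H2AX in KO and 46.4 and 48.4 in WT (-0.0050 ± 0.03).

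Cell type genes had medians near that of all bins. Fibroblast genes had 36 bins with 0 called and a median of 0.01, and the highest were the collagen genes Col5a2 (0.15 ± 0.04, adjusted p = 0.133, with input at 0.07) and Col3a1 (0.07, input -0.08) and the fibrillin gene Fbn1 (0.07). Haematopoietic (22 bins), epithelial (9) and endothelial genes (12) had medians of 0.02, 0.02 and -0.02, with 0 called in each. Keratins (15 bins) had 0.0023. Neuronal adhesion genes (127 bins) had -0.0096, with Lrrc4c at 0.12 (input -0.05) and 0 called.

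Among large families, cytosolic ribosomal protein genes had 79 bins with 0 called, a median of 0.02 and Rps9 furthest from 0 (-0.15 ± 0.05, input 0.12). Olfactory receptors (339 bins, median -0.0014), vomeronasal receptors (217 bins, -0.0015, with Vmn2r97 at -0.13 and Vmn2r81 at 0.12) and zinc finger genes (375 bins, 0.0031) had 0 called. The Hox clusters had 9 bins with a median of -0.01, and the Hoxa10 bin had -0.11 ± 0.04 (adjusted p = 0.661). The 8 bins of clustered histone genes had a median of -0.02. A call was found in 2 of the 18 lists, beside 0.154% of all bins called, and these counts are not read as a property of the lists. It was the Zrsr1 bin among 41 bins of imprinted genes (median 0.00094) and the Dlg2 bin among 304 bins of long genes at fragile sites (median -0.02), both from the 8 bins described above. Over the 18 lists the median ran from -0.02 to 0.02 for H2AX, from -0.02 to 0.05 for input and from -0.04 to 0.04 for the difference, and 0 bins were called for the difference in any list.

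**Figure D5:**
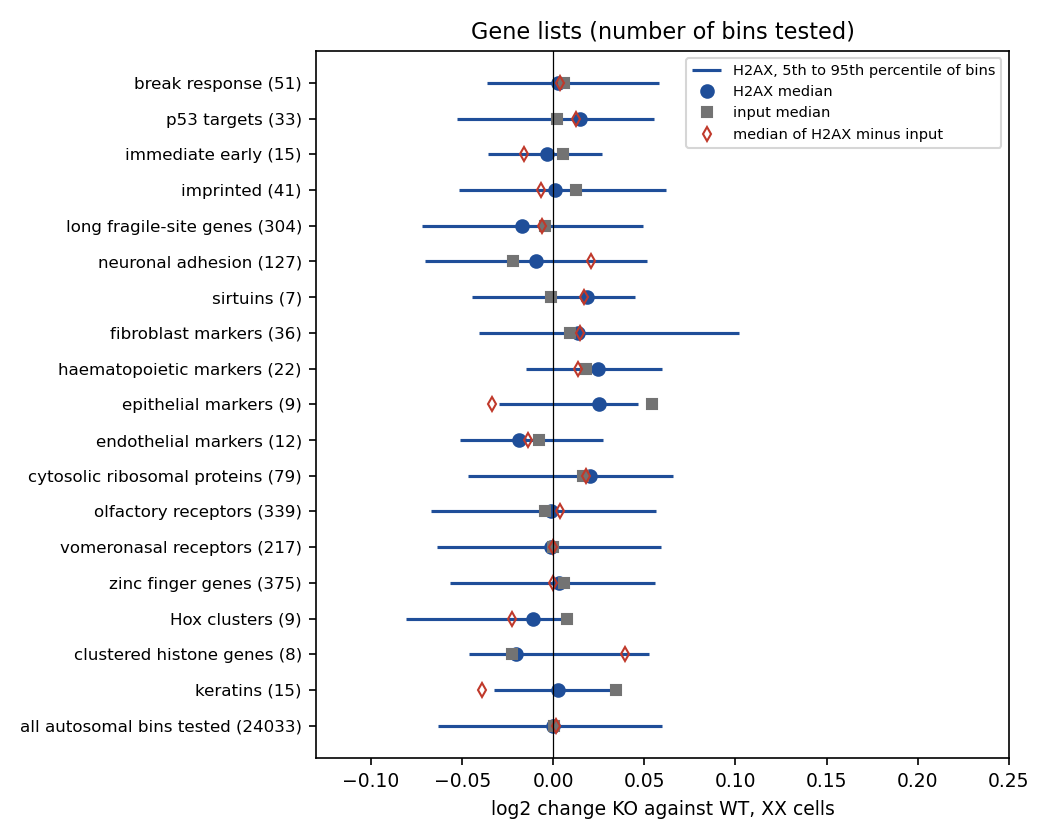
Log2 change KO against WT in XX cells for the bins of 18 gene lists and for all autosomal bins, with the H2AX median (circle) and 5th to 95th percentile (line), the input median (square) and the median of H2AX minus input (diamond). The H2AX medians lie between -0.02 and 0.02, and the bar of all bins runs from -0.06 to 0.06.

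Gene density and position gave small shifts. The median log2 change of H2AX was -0.0043 in 13359 bins without a gene midpoint and 0.0092 in 666 bins with 5 or more, and that of input was -0.0045 and 0.01. Per log2 unit of the H2AX to input ratio, the H2AX change rose by 0.02 (r = 0.13 across 24033 bins, which are not independent) and the input change by 0.05 (r = 0.31). Chromosome medians ran from -0.0067 (chromosome 8) to 0.0053 (chromosome 11), and 13 of the 19 autosomes held a called bin. Among the 37 called bins 15 (40.5%) held no gene midpoint, against 55.6% of all bins, and 7 (18.9%) had input under 0.5 or over 1.5 times the median bin, against 1.46%.

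The phosphorylated form and the XY cells were read at the same 37 bins. For gH2AX in XX cells, 251 of 24032 autosomal bins were called (1.04%), 100 higher (0.416%) and 151 lower (0.628%). At the 37 bins gH2AX was called in the same direction in 26 and in the opposite direction in 4. Of the 26, 16 were adjacent bins of the chromosome 8 block. The 4 in the opposite direction were the Dlg2 bin (0.19), chr14:45800001-45900000 (0.17), the Srgap1 bin (0.15) and the Dcc bin (0.14). The difference between the gH2AX and H2AX changes was called in 60 bins over all autosomes (0.25%), 24 higher (0.0999%) and 36 lower (0.15%), and in 10 of the 37. These were the 8 bins that rose in XY, the P4hb bin and the Rn18s-rs5 bin. The 37 were chosen by their H2AX change, which this difference also uses, so the choice raises the count. Without single libraries the counts over all autosomes moved to between 72 (without gH2AX KO replicate 2) and 312 for gH2AX and to between 28 (without H2AX KO replicate 2) and 150 (without gH2AX WT replicate 2) for the difference. gH2AX also fell to 160 without KO replicate 1 and 86 without WT replicate 1, and the difference moved to 100 and 30 without gH2AX KO replicates 1 and 2.

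For H2AX in XY cells 46 bins were called (0.191%), 26 higher (0.108%) and 20 lower (0.0832%), and for input 53 (0.221%), 23 higher (0.0957%) and 30 lower (0.125%). The difference of the H2AX changes between XX and XY was called in 69 bins (0.287%), 20 higher (0.0832%) and 49 lower (0.204%). At the 37 bins XY was called in the same direction in 2, the P4hb and Rn18s-rs5 bins, and in the opposite direction in 11, and the difference between the sexes was called in 34. The 11 were the 8 bins above, both Srp54 bins and the Cgn bin. No difference between the sexes was called at the P4hb, Rn18s-rs5 and Mettl21e bins. The 37 bins were chosen by their XX change, which the difference between the sexes also uses, so the choice itself raises the count of 34. The test of that difference does not take off the change of input. Of these 34, 16 were adjacent bins of the chromosome 8 block and 18 lay outside it. The H2AX minus input difference was called in 7 bins in XY (0.0291%), 5 higher (0.0208%) and 2 lower (0.00832%), and the 4 with the highest H2AX to input ratio were among them, at 0.31 to 0.34, where XX had -0.08 to -0.14 and was not called.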

How the data were processed

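H2AX, gH2AX and input chromatin of irradiated mouse embryonic fibroblasts were sequenced in 24 labelled libraries, 2 per group in 12 groups. The authors deposited whole-number read counts per 100 kb bin of mm10 (27268 bins), not normalised as far as the values show. Per the submitters' processing notes, Bowtie2 2.2.9, SAMtools 0.1.19, Trimmomatic 0.36, FastQC 0.11.3, MACS2 2.2.7.1 and deepTools 2.4.2 were named. Which of these made the counts, and how reads matching several places were counted, is not given in the sources used here. The table also holds 24 columns that match no labelled sample and were not used.

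Counts of chromosomes 1 to 19 and X were fitted with edgeR 4.0.16 (R 4.3.3) after its filter on low counts, with TMM factors from autosomal bins. Calls are from the quasi-likelihood F test with Benjamini-Hochberg adjustment across every bin in the fit and a threshold of 0.05. H2AX, input and gH2AX were each fitted over their 8 libraries of both sexes, and differences between changes over all 24. The SE is the log2 change divided by the root of F. Whether replicate numbers pair KO and WT libraries is not in the labels, and the main fits used no pairing. The correlation of replicate differences was -0.0054 for H2AX and -0.0068 for input in XX cells, and 0.04 for both in XY cells. For gH2AX it was 0.05 in XX and 0.02 in XY. These values do not settle whether libraries were paired. DESeq2 1.42.0, other scalings, no filter, XX libraries alone, bins of middling input (0.5 to 1.5 times the median), removal of a trend on the H2AX to input ratio, the replicate number as a block and leaving out single libraries were the alternatives. The fitting code was tested on simulated counts.

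Adjacent called bins of 1 direction and class whose KO and WT libraries did not overlap were merged into regions. Per class and direction the 6 with most bins and the 4 with the largest change were named, and in each gene list the 3 genes with the largest absolute change. Members, regions and gene lists were chosen with earlier results of these data known. Gene positions and promoter sequences are from RefSeq (GRCm38.p6). GC content of bins was not used here.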

Additional observations from a re-analysis of the deposited data

Results flagged for a closer look

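In 15 leading bins of the called regions the change of H2AX between KO and WT in XX cells differed from that in XY cells. The test was of the difference itself, edgeR's quasi-likelihood test of the interaction over the 8 H2AX libraries with Benjamini-Hochberg adjustment. Values are the XX change minus the XY change on the log2 scale. The bins were chosen for their XX change, which this difference also uses, and the chr5:104000001-104100000 bin lay outside the naming rule. This difference does not take off the change of input, and whether the sexes differed beyond input was not tested.

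Where XX changed and XY was not called, the difference was -1.08 at chr8:48000001-48100000 (Dctd, adjusted p = 4.69e-27), -0.45 at chr13:89500001-89600000 (Hapln1, 2.81e-13) and -0.28 at chr8:74000001-74100000 (0.00858). It was 0.30 at chr14:43400001-43500000 (1.56e-05) and 0.24 at chr14:43500001-43600000 (0.000165), and the last of these lost its XX call without any 1 of the 4 H2AX libraries. The chr14:43400001-43500000 bin lost its XX call without KO replicate 1 or WT replicate 1.

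In the bins called in opposite directions, the difference was 1.24 at chr12:55100001-55200000 (Srp54b, 5.43e-35) and 0.34 at chr3:94700001-94800000 (Cgn, 3.32e-06). It was -0.97 at chr7:90400001-90500000 (Dlg2, 1.18e-15), -0.90 at chr14:45800001-45900000 (1.63e-15), -0.79 at chr10:121700001-121800000 (Srgap1, 7.12e-14) and -0.71 at chr5:104000001-104100000 (Sparcl1, 3.43e-13). It was -0.51 at chr16:93600001-93700000 (Cbr3, 5.58e-11), -0.46 at chr17:3300001-3400000 (Tiam2, 1.23e-09), -0.42 at chr11:22900001-23000000 (Commd1, 1.20e-08) and -0.38 at chr18:71400001-71500000 (Dcc, 7.95e-07). At these last 8 bins the XX call was lost without WT replicate 2, without KO replicate 1 and with DESeq2. Input at these 8 bins changed by -0.28 to -0.06 in XX and by 0.04 to 0.27 in XY. At Srp54b input rose by 0.39 in XX and fell in XY. The Cgn bin lost its XX call without KO replicate 2, WT replicate 1 or WT replicate 2 and with DESeq2.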

How the results depend on the processing

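With 2 libraries per group, the 95% interval of a bin reached about 0.07 for H2AX and 0.10 for H2AX minus input, without adjustment for the number of bins. The smallest called H2AX change was 0.14, yet 0.24 at chr7:32900001-33000000, with 627 to 1701 reads per library, was not called. Differences from input of 0.22 at chr4:89400001-89500000 and -0.26 at the Rps9 bin were not called either. None of these sizes is a limit of detection, and changes near or below them could go uncalled. The 37 H2AX calls became 25 to 34 without single H2AX libraries, 30 with DESeq2, 42 with XX libraries alone and 29 in bins of middling input, where the 43 input calls became 28. That setting tests fewer bins. Input gave 34 to 36 without single libraries and 30 with DESeq2. With the replicate number as a block, H2AX had 41 calls, input 36, and the difference between them 1 in place of 0; removal of the trend on the H2AX to input ratio also gave 1. Both were the Rn18s-rs5 bin, and the cause was not tested. The difference stayed at 0 without each of the 8 H2AX and input libraries of XX cells in turn. Undecided bins ranged from 0 to 11 and shared bins from 25 to 30 without single H2AX or input libraries. gH2AX calls ranged from 72 to 312, and those of gH2AX minus H2AX from 28 to 150. Over the 18 leading bins, 153 of 193 values under an alternative kept direction and call, 40 lost the call and 0 reversed. The planned corrections for GC content were not run, since no genome sequence was given.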
